A study of Homo sapiens with 4 samples.

Results

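The genes described here are LARGE2, DAG1, POMT1, POMT2, POMGNT1, POMK and B4GAT1, that is, dystroglycan and 6 of the enzymes that build its O-mannose glycans. These 7 genes were taken by name from the 19729 genes listed for each library, and all 7 were found. HT-29, a microsatellite-stable human colorectal cancer cell line with a BRAF mutation and truncated APC, had been transduced with lentivirus carrying a doxycycline (DOX)-inducible shRNA. In the APC shRNA group (n = 2 libraries) the hairpin was directed at APC, and in the NonS group (n = 2 libraries) it was non-silencing. Both groups received 500 ng/ml DOX for 72 h, so the controls share the transduction and the drug, and polyadenylated RNA was sequenced. The comparison asks which genes respond when the remaining APC activity of these cells is lowered. LARGE2 was picked for further work by the study on these same libraries, so its difference is not independent evidence.

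Dystroglycan is made from DAG1 as one precursor and cleaved into an outer α subunit and a membrane-spanning β subunit. Mannose is first attached to the α subunit in the endoplasmic reticulum, a phosphorylated trisaccharide is then built on part of these mannoses, and further sugars are added until a repeating polymer of xylose and glucuronic acid, matriglycan, can be laid down by an enzyme such as LARGE2. Matriglycan is the part that binds laminin G domains of laminins, agrin and perlecan, and through it epithelial cells hold on to the basement membrane.

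LARGE2 (ENSG00000165905) lies at chr11:45921621-45929096 on the plus strand (GRCh38, GENCODE v29), and none of its exons overlap an exon of another gene. To see whether its reads could be assigned to another gene, every stretch of its transcripts as long as a 50-base read was compared with all other transcripts. Of the 3360 different 50-base windows in LARGE2 transcripts, 0 occurred in a transcript of any other GENCODE v29 gene, on either strand.

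Each deposited value is a whole number per gene and library. Values of replicates lay closer together than independent read counts would, with a variance 0.474 times the Poisson variance in NonS (4632 genes) and 0.345 times in APC shRNA (4531 genes) over genes whose replicates summed to between 10 and 39. Over all genes above 0 in the group this ratio was 0.814 in NonS and 0.958 in APC shRNA, closer to that of counts. The sum of value times longest transcript length in kb was between 980841 and 984873 per library. This definition of length was chosen among several because its sums came closest to those of values scaled for length and depth (RPKM). The sums are thus not independent support for such a scale. Because of the low spread among genes with replicate sums of 10 to 39, the values were treated as scores and not as counts. Scaling for length and depth was assumed. The number of reads behind them is unknown, and no counting interval is given. The libraries summed to between 398338 and 413595. APC, the targeted gene (chr5:112707498-112846239), had a value of 3 in NonS replicate 1 and 0 in the other 3 libraries, so the knockdown cannot be checked at this precision and its apparent difference rests on NonS replicate 1. Apart from these values, the study reported silencing of APC mRNA and protein in the cells, the protein by immunoblot. All 8 epithelial marker genes were above 0 in at least 1 library, with summed values of 4176 to 5142 in NonS and 4554 to 4700 in APC shRNA. These sums were carried by keratins, and single markers moved in opposite directions. LGALS4, a galectin of differentiated intestinal cells, fell from 557 and 646 in NonS to 175 and 147 upon APC silencing (-1.90, SE 0.14, adjusted p = 0.0423 in limma), a call that was also lost without each library in turn. CDH1, which encodes E-cadherin, was at 98 and 119 in NonS against 74 and 85 upon APC silencing (adjusted p = 0.145 in limma), and CDX2, an intestinal transcription factor, at 0 and 0 in NonS against 2 and 4 upon APC silencing. The part of these markers in the results on the members was not tested. The 5 fibroblast and 3 endothelial markers were at 0 throughout. Of 5 leukocyte markers 3 were above 0, summing to 8 to 11 in NonS and 4 to 5 in APC shRNA, with PTPRC and CD3E at 0.

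Among the members, LARGE2 differed most upon APC silencing. Its value was 2 and 1 in the NonS libraries and 27 and 32 in the APC shRNA libraries. Both APC shRNA libraries thus stood far above both NonS libraries, with no overlap. The NonS mean was 1.5 ± 0.707 (SD, n = 2) and the APC shRNA mean 29.5 ± 3.54 (SD, n = 2), a ratio of 19.7. In bulk RNA, more cells with a transcript and more of it per cell cannot be told apart. A value of 1 or 2 is coarse after rounding, and if each value were off by 1 toward the other group the ratio would still be 11.4. On the log2(value + 1) scale, which damps such low values, the difference was 3.63 (SE 0.26, 95% interval 2.83 to 4.44, adjusted p = 0.0423 with limma and Benjamini-Hochberg adjustment over the 5376 genes whose mean value was 10 or more).

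That adjusted p was the smallest any gene reached, and 122 genes shared it. By size of the rise, LARGE2 was at rank 4 of the 5376 genes tested, and by unadjusted p at rank 69. At an adjusted p under 0.05 the limma test called 233 genes higher (4.33%) and 199 genes lower (3.7%), or 8.04% in either direction. Of the 7 members, 3 reached the mean value needed for testing (DAG1, POMGNT1 and LARGE2), and LARGE2 did so only through the APC shRNA libraries. LARGE2 was the 1 member called higher, and 0 members were called lower. With the study's stricter limits of a 4-fold change and adjusted p under 0.01, limma called 0 genes, as no adjusted p was below 0.0423. The study, using DESeq2, called genes in both directions at these limits. On the log2(value + 1) scale 31 genes were over 4-fold higher and 7 over 4-fold lower. In limma 1912 genes had an unadjusted p under 0.05. The call of LARGE2 did not survive the loss of any library: without each NonS or APC shRNA library in turn the difference was 3.34 to 3.93 and the adjusted p 0.163 to 0.208, in fits that called 0 genes.

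The transcript of LARGE2 is rich in G and C (62.8%, against a median of 51.9% over the genes tested), and across 5364 genes the difference between groups rose with GC content (Spearman correlation 0.24, across genes and not across independent samples). The 487 genes with at least as high a GC content had a median difference of 0.10, beside 0.03 for all genes tested. With this trend removed from each library the difference of LARGE2 was 3.52.

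DAG1 (ENSG00000173402, chr3:49468703-49535618, plus strand), which encodes the acceptor of these glycans, was the member with the highest value. It was at 26 and 29 in NonS against 28 and 32 upon APC silencing. The ranges overlapped. The difference was 0.12 (SE 0.11, 95% interval -0.21 to 0.45, adjusted p = 0.47 in limma), so a change of up to 0.45 on the log2 scale is within the interval. Set against its acceptor, LARGE2 was at 0.0769 and 0.0345 times the value of DAG1 in the NonS libraries and at 0.964 and 1 times in the APC shRNA libraries. Length-scaled values would allow this comparison between genes, but here the scaling is assumed, as the sums above do not test it.

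POMT1 and POMT2 encode the enzymes that together attach the first mannose. POMT1 (ENSG00000130714, chr9:131502902-131523806, plus strand) was at 4 and 4 in NonS against 7 and 5 upon APC silencing. Both APC shRNA values were above the NonS values, by 1 to 3 units. POMT2 (ENSG00000009830, chr14:77274956-77320884, minus strand) was at 4 in every library. Neither reached the mean needed for testing.

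POMGNT1 (ENSG00000085998, chr1:46188682-46220305, minus strand) encodes the enzyme that adds N-acetylglucosamine to O-mannose on the other branch, which does not carry matriglycan. Its value was 18 and 19 in NonS against 23 and 25 upon APC silencing. The groups did not overlap, and the ratio of means was 1.3. The difference of 0.36 (SE 0.07, 95% interval 0.13 to 0.58) missed the threshold (adjusted p = 0.0778 in limma). Its exons share 601 bases with LURAP1 on the opposite strand, and 11.5% of its 50-base windows occur in another gene. LURAP1 was at 0 and 0 in NonS against 1 and 1 upon APC silencing.

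POMK (ENSG00000185900, chromosome 8) encodes the kinase that phosphorylates the mannose of the trisaccharide, the step before the ribitol phosphate extension. It was at 1 and 2 in NonS against 1 and 1 upon APC silencing. B4GAT1 (ENSG00000174684, chr11:66345372-66347692, minus strand) encodes the glucuronyltransferase that primes the chain for LARGE2. It was at 7 and 6 in NonS against 5 and 7 upon APC silencing. Both genes overlapped between the groups and were too low to be tested.

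**Figure D1:**
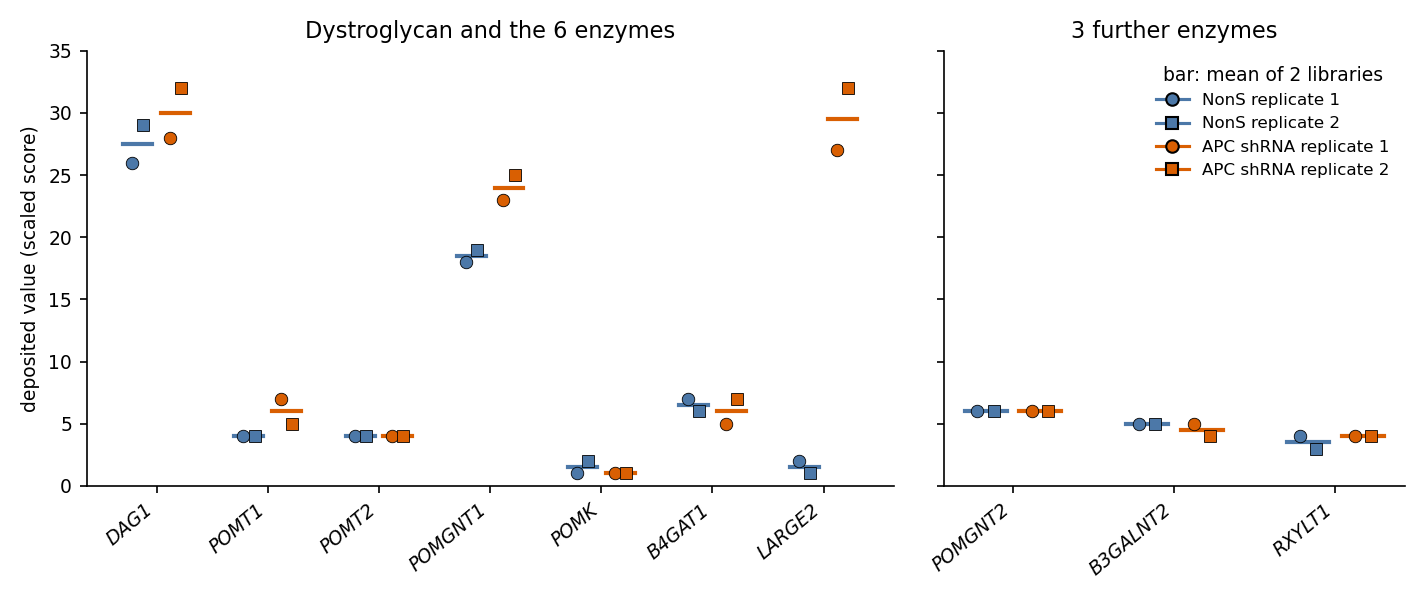
Deposited value (scaled score) in each library for dystroglycan and the 6 enzymes (left) and for 3 further enzymes of the matriglycan-bearing glycan (right). Circles are replicate 1, squares replicate 2, bars the mean of 2 libraries, blue NonS and orange APC shRNA. LARGE2 goes from 2 and 1 to 27 and 32, and the next largest difference in means is that of POMGNT1, from 18.5 to 24.

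The order of the members differed between the groups through LARGE2. In NonS the means fell from DAG1 (27.5) through POMGNT1 (18.5), B4GAT1 (6.5), POMT1 (4) and POMT2 (4) to LARGE2 (1.5) and POMK (1.5). POMT1 and POMT2 were equal, LARGE2 and POMK had the same range, and the other neighbours did not overlap. In APC shRNA, LARGE2 (29.5) stood beside DAG1 (30), with overlapping ranges, and above POMGNT1 (24), B4GAT1 (6), POMT1 (6), POMT2 (4) and POMK (1). There B4GAT1 and POMT1 overlapped, and POMT2 lay below POMT1. Relative to all genes above 0 in the group, LARGE2 exceeded 12.7% of 12347 genes in NonS and 83.1% of 12570 genes in APC shRNA.

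Summed over the 7 members, the value was 62 and 65 in NonS against 95 and 106 upon APC silencing. Without LARGE2 the sums were 60 and 64 in NonS against 68 and 74 upon APC silencing. LARGE2 made up 3.23% and 1.54% of the summed value in NonS and 28.4% and 30.2% in APC shRNA, so most of the difference between the sums was its own. On the log2(value + 1) scale, LARGE2 minus the mean of the other 6 members was -1.36 and -2.04 in NonS against 1.75 and 1.94 upon APC silencing, a difference of 3.54. An exact two-sided permutation test gave p = 0.333, the smallest that 2 libraries against 2 allow. The mean of the other 6 members differed by 0.09.

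Both APC shRNA libraries exceeded both NonS libraries for 3 of the 7 members (LARGE2, POMGNT1 and POMT1), and 0 lay below. Among the genes tested 33% were non-overlapping and higher and 27.5% lower, and among genes with a mean from 1 to 10 these shares were 20.8% and 14.3%. Non-overlap at this number of libraries is thus common among genes in general. POMT1 was too low for the limma test, and LARGE2 was tested only through its APC shRNA values.

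Further enzymes of the matriglycan-bearing glycan were low. POMGNT2, which adds N-acetylglucosamine to the mannose, was at 6 in every library. B3GALNT2, which completes the trisaccharide, was at 5 and 5 in NonS against 5 and 4 upon APC silencing. RXYLT1, which adds the xylose that B4GAT1 extends, was at 4 and 3 in NonS against 4 and 4 upon APC silencing. In each of these 3 genes the groups overlapped, and with mean values under 10 none of the 3 could be tested.

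**Figure D2:**
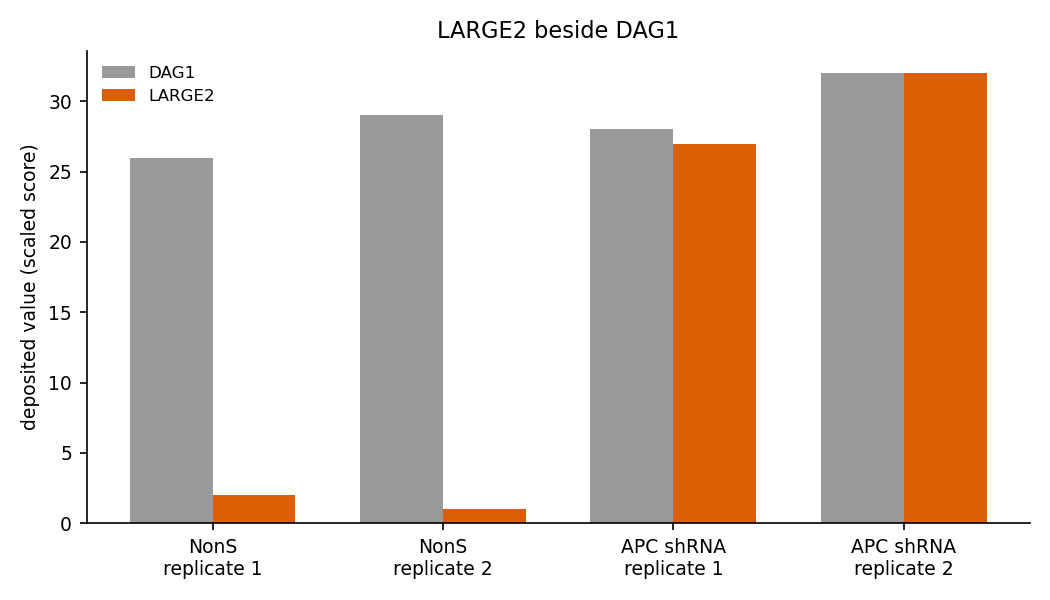
Deposited value (scaled score) of DAG1 (grey) beside LARGE2 (orange) in each of the 4 libraries. LARGE2 goes from 2 and 1 in NonS to 27 and 32 upon APC silencing, close to the DAG1 values of 28 and 32 there.

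The genes that supply the sugar donors, dolichol-phosphate mannose, UDP-xylose and UDP-glucuronic acid, were mostly high enough to be tested. Of 15 genes 12 were tested and 0 were called in either direction, near the background of 8.04%. The median difference was -0.12, beside 0.03 over all genes tested. DPM1, the catalytic subunit of dolichol-phosphate mannose synthase, was at 52 and 47 in NonS against 41 and 47 upon APC silencing (-0.17, adjusted p = 0.343 in limma). PMM2, which makes mannose 1-phosphate, was at 40 and 40 in NonS against 34 and 32 upon APC silencing (-0.27, adjusted p = 0.084 in limma). UGDH, which makes UDP-glucuronic acid, and UGP2, which makes UDP-glucose, were lower in both APC shRNA libraries without overlap, at 25 and 18 against 17 and 11 and at 26 and 17 against 16 and 10. In both genes the replicates spread widely, with replicate 2 the lower library of each group. Neither passed the test, which did not take the replicate number into account. NUS1, a subunit of the synthase of the dolichol precursor, and PMM2 were the other genes of the 4 that were lower without overlap, a share near the 27.5% of all genes tested.

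Enzymes of other O-mannose pathways were scarce. Of 7 genes 0 could be tested, and MGAT5B, CHST10 and TMTC1 were at 0 throughout. TMTC4, with the highest mean of the list, was at 6 and 6 in NonS against 7 and 7 upon APC silencing, and TMTC2 was at 4 and 5 in both groups.

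On the inner side of the membrane, dystroglycan binds dystrophin or utrophin and their partners in muscle. In HT-29 cells 7 of the 14 genes of this complex were at 0 in every library, DMD among them, and 1 was high enough to be tested. This was SNTB1, a syntrophin, at 29 and 29 in NonS against 20 and 24 upon APC silencing, lower in both but not past the threshold (-0.39, adjusted p = 0.118 in limma). Next by mean was SNTB2, another syntrophin, at 3 and 3 in NonS against 2 and 2 upon APC silencing.

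Of the 9 genes for laminin G domain proteins that matriglycan can bind, 5 were at 0 in every library (among them LAMA1, LAMA2, LAMA4 and EGFLAM) and 3 were tested. HSPG2, which encodes perlecan, a basement membrane proteoglycan, was the 1 gene called, in the direction opposite to LARGE2. Among all genes tested 3.7% were called lower, and 27.5% were lower without overlap. The value of HSPG2 was 63 and 80 in NonS against 25 and 28 upon APC silencing. Both APC shRNA libraries lay well below the NonS libraries, at 0.371 times their mean, and the difference was -1.39 (SE 0.16, 95% interval -1.88 to -0.90, adjusted p = 0.0465 in limma). This call also ended without each library in turn (-1.56 to -1.22, adjusted p 0.181 to 0.217), and with a mean of at least 8 as the filter (adjusted p = 0.0508) or none (0.0596). AGRN, which encodes agrin, was at 131 and 191 in NonS against 145 and 188 upon APC silencing, a spread between replicates far larger than the difference of 0.06 (adjusted p = 0.884 in limma). LAMA5, a laminin α chain of epithelial basement membranes, was at 30 and 35 in NonS against 30 and 27 upon APC silencing (-0.18, adjusted p = 0.337 in limma).

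**Figure D3:**
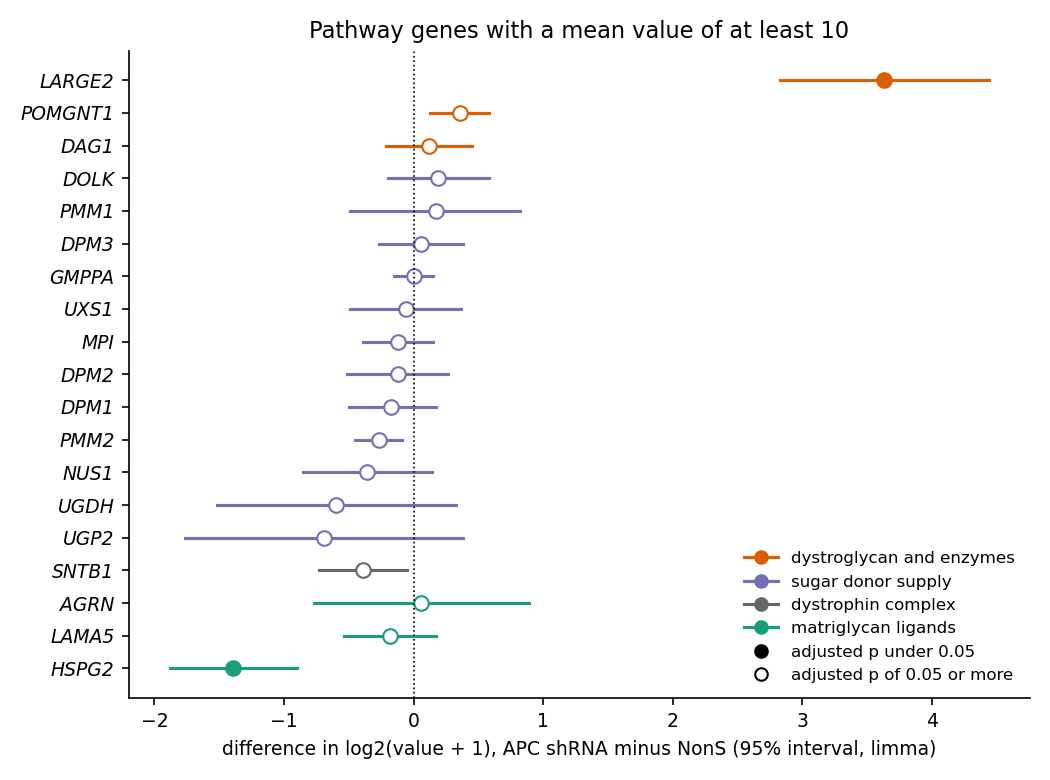
Difference in log2(value + 1), APC shRNA minus NonS, with its 95% interval from limma, for the members and pathway genes that were tested. Filled circles have an adjusted p under 0.05. LARGE2 (3.63) lies far to the right of the other genes and HSPG2 (-1.39) to the left of them, and the intervals of most others include 0.

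The genes most like LARGE2 over the 4 libraries were found by the distance between profiles of log2(value + 1), each centred on its own mean, among 5375 genes. They were CDKN1C (distance 0.54), ASCL2 (0.54), PTK7 (0.71), SP5 (0.77) and WNT11 (0.79). CDKN1C, which encodes a cyclin-dependent kinase inhibitor, was at 4 and 4 in NonS against 42 and 56 upon APC silencing. ASCL2, a transcription factor of intestinal stem cells, was at 4 and 4 in NonS against 42 and 66 upon APC silencing. These genes were picked by nearness to the values of LARGE2, so low NonS and high APC shRNA values in them follow from the choice. SP5 was at 3 and 4 in NonS against 65 and 83 upon APC silencing. Like LARGE2, CDKN1C, ASCL2 and SP5 reached the mean needed for testing only through the APC shRNA libraries. For DAG1 the nearest profiles were those of ATG13 (distance 0.013), ORMDL2 (0.021), NAXD (0.025), ZNF787 (0.027) and RPL36A (0.034), in which replicate 2 was the higher library of each group. ATG13, an autophagy gene, was at 28 and 31 in NonS against 30 and 34 upon APC silencing.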

How the data were processed

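Polyadenylated RNA of 4 HT-29 libraries was sequenced as 50-base single reads from a stranded library kit. The authors called bases with bcl2fastq (2.19.0.316), filtered reads on quality, trimmed polyA, mapped with TopHat2 to human assembly 38, counted with htseq-count against GENCODE v29 and used DESeq2 (1.4.1 in the submitters' processing notes, which also name hg19). The strand option is not given in the sources used here. For each gene and library the authors deposited 1 whole number. These deposited values were treated as a score of unstated scale. The reason was their spread between replicates, which was below that of counts over genes with replicate sums of 10 to 39. No count model was run, and the depth in reads is unknown. The authors' table of the comparison (mean, fold change and p-values) was not used. The number of unused columns of per-sample values was 0.

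Libraries were grouped by the sample labels. The labels do not say that duplicates came from separate cultures, although the study calls them biological duplicates, and p-values measure the spread between these libraries. On the whole table, log2(value + 1) of genes with a mean of at least 10 was fitted by limma (version 3.58.1, R version 4.3.3), its moderated variances following a trend with the mean, and p-values were adjusted by Benjamini and Hochberg, with a call at an adjusted p under 0.05. A difference on this scale understates the change of low genes. Of the genes tested 132 had equal values in both pairs of replicates, and limma offset their zero variances. The test was tried on simulated data. Single values were compared with exact permutation tests (scipy 1.17.1). Positions, transcripts, GC content and shared 50-base windows came from GENCODE v29 (19502 of the 19729 genes found there). The transcript length used for the sums, the longest per gene, was chosen in earlier work on these values among several definitions, because its sums came closest to those of RPKM values.

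The members and lists were chosen with earlier results of these data known. APC, the members and further enzymes of the glycan were always named, except some that are not reported here. From the other lists, genes past the threshold and those with the highest mean were named, and with them the 5 genes nearest to LARGE2 and to DAG1. UGDH, UGP2, NUS1, LAMA5, LURAP1, LGALS4, CDH1 and CDX2 beyond that rule, and the genes at 0, were named after their values were seen. Alternatives covered scaling, the pseudocount, filters, the variance model, a replicate block, GC content (a loess trend per library, span 0.5), the threshold and each library left out. Those for HSPG2, PEX16, PMM2 and SNTB1 were chosen after seeing the data.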

Additional observations from a re-analysis of the deposited data

How the results depend on the processing

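Over all results and alternatives, 186 comparisons were rated as the same. For tested genes this meant the same side of the threshold, with direction checked only for called genes. For values without a test it meant a move below the spread between replicates, and for gene counts a move within a fixed fold. Of the other comparisons, 41 values moved further, 14 calls were lost and 2 were gained. The count of 233 genes higher was 373 with median-of-ratios, 336 with upper-quartile and 343 with equal-total scaling. It was 952 when every gene above 0 was tested, 139 with at least 10 in every library, 368 with robust moderation and 446 with the GC content correction. The count of 199 genes lower was 405 with median-of-ratios, 349 with upper-quartile and 369 with equal-total scaling, 515 when every gene was tested, 352 with robust moderation and 468 with the GC content correction. Both counts were 0 with the limits of a 4-fold change and adjusted p under 0.01, and 0 to 0 with each library left out, where 1119 to 1330 genes had an unadjusted p under 0.05 in limma. With the replicate number as a block 523 genes were higher and 500 lower, and with GC content corrected too 1211 were higher and 1262 lower. The labels give the replicates only a shared number, and the differences between replicates 1 and 2 correlated between the groups (0.724 across genes).

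LARGE2 was higher in APC shRNA under every alternative that could be fitted. Its difference of 3.63 was 4.30 as a log2 ratio of means and 3.34 to 3.93 with each library left out, where it was not called. The adjusted p was 0.00345 to 0.0474 in the other fits. Requiring at least 10 in every library left LARGE2 untested. The log2 ratio of its means was 3.88 to 4.88 with each library left out and 3.51 with each value off by 1. The size depended on the pseudocount: the difference of LARGE2 was 4.28 with 0.1 and 2.41 with 5, the lowest of its alternatives. LARGE2 minus the mean of the other members was 4.20 with a pseudocount of 0.1 and 2.32 with 5. POMGNT1 passed the threshold only with the block and GC content correction together (0.27, adjusted p = 0.0431). PMM2 also did so (-0.26, adjusted p = 0.0436). With each library left out, the difference of POMT1 was 0.26 to 0.68 and its log2 ratio 0.32 to 0.81, and the difference of POMK was -0.58 to 0 and its log2 ratio -1 to 0. As a log2 ratio of means POMK differed by -0.58. POMT2, equal in all libraries as deposited, was at -0.03 with median-of-ratios scaling, also as a ratio, at -0.03 with upper-quartile scaling and at -0.02 with equal totals. The members below the filter had no value under the variance models, the block and the GC content correction. Rounding to whole numbers limits every statement on members under 10.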

Other observations

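The values of the genes around LARGE2 on chromosome 11 were looked up after its own value was known. PEX16, a peroxisome assembly gene on the opposite strand 2.81 kb from LARGE2, was at 11 and 11 in NonS against 18 and 18 upon APC silencing. It rose by 0.66 (SE 0.05, adjusted p = 0.0423 in limma). As the replicates of PEX16 were equal in each group, this SE and p rest on the variance that limma assigned and not on a spread between libraries. PHF21A, which ends 0.227 kb from LARGE2 on the opposite strand and encodes a histone reader, was at 3 and 3 in NonS against 6 and 6 upon APC silencing. Further away, MAPK8IP1 (15.2 kb) was at 0 and 0 in NonS against 1 and 1 upon APC silencing, and CRY2 (38.4 kb), a circadian repressor, at 4 and 5 in NonS against 5 and 5 upon APC silencing. C11orf94 (14.3 kb) was at 0 in every library. PHF21A, MAPK8IP1 and CRY2 were too low to be tested. PEX16, PHF21A and MAPK8IP1 were higher without overlap, while CRY2 and C11orf94 overlapped between the groups. Among the genes tested 33% were higher without overlap, and among genes above 0 in any library 25.9%. A joint rise around LARGE2 was not tested.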
